A study of Mus musculus with 12 samples.

Results

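Sox10, Erbb3, Fabp7, Cdh19, S100b, Ngfr, Gfra3 and Dhh, a set of 8 genes known from Schwann cells and other peripheral glia, were followed in the embryonic mouse tongue. They were chosen by name with earlier results of these data known. All 8 were measured among 18193 genes, through 15 of 45037 probe sets. The tongues came from C57BL/6J embryos of embryonic day 13.5. The 6 mutant samples carried Myf5-Cre and 2 floxed copies of Smad4 (Myf5-Cre;Smad4flox/flox), and the 6 control samples carried the same Cre with 1 floxed and 1 wild-type copy (Myf5-Cre;Smad4flox/+). Both groups therefore carried Cre driven by Myf5, a muscle determination gene, so that recombination takes place in the lineage that expresses Myf5, and both carried at least 1 floxed allele of Smad4, the signal transducer shared by TGF-β and BMP. Each sample was hybridised to 1 Affymetrix array. The labels call the samples biological replicates, and nothing in them says how many tongues or litters they came from, so the spread between samples may be in part technical.

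Schwann cells arise from neural crest cells that reach growing nerves as Schwann cell precursors. Sox10 is the transcription factor that specifies this lineage and keeps it alive, largely by way of ErbB3, which receives neuregulin 1 from axons. Precursors then become immature Schwann cells. Cells of this lineage make fatty acid binding protein 7, S100 calcium binding protein B and desert hedgehog. A tongue at this age is supplied by several cranial nerves whose fibres are accompanied by cells of the lineage. Several of the 8 genes are also made elsewhere. S100b is known from cartilage, Fabp7 from glia of the brain, and in human muscle development ERBB3 and NGFR are known as surface markers of myogenic progenitors.

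The 8 genes did not change as a block in the mutant tongue. Fabp7 and S100b rose, Erbb3 and Ngfr fell, and Sox10, Cdh19, Gfra3 and Dhh did not pass the test (limma, Benjamini-Hochberg adjustment over all genes, threshold 0.05 on the adjusted p). Over all 18193 genes 11.1% passed, 6.30% as rises and 4.80% as falls. The median difference of the 8 genes was 0.05 on the log2 scale, beside 0.01 for all genes tested, and hides members at 1.00 and −0.59. Whole tongue RNA was measured, so fewer cells of a type and less RNA per cell cannot be told apart in any of these values. In both groups Sox10, Erbb3, Fabp7, Ngfr and Gfra3 read above 6.13, the median of all probe sets, on every array, while Dhh, S100b in controls and, less so, Cdh19 lay near it. Values below are log2 signals of the brightest probe set of each gene unless another is named, and levels of different genes are not set against each other because each probe set has its own brightness.

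**Figure D1:**
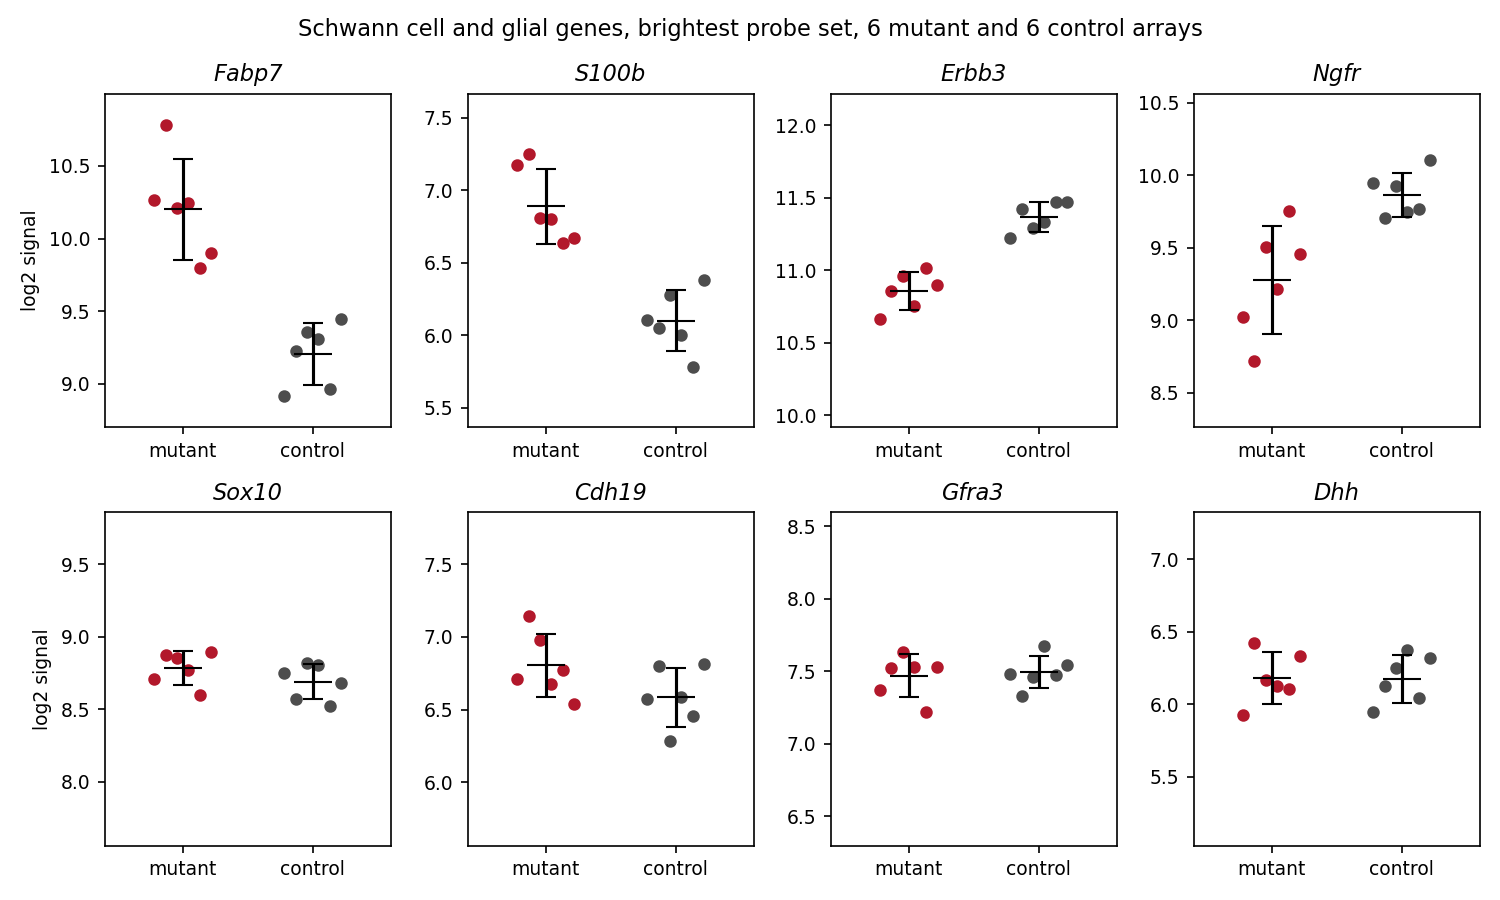
Each panel shows the log2 signal of the brightest probe set of 1 gene on 6 mutant arrays (left, red) and 6 control arrays (right, grey), with the mean and SD as a bar and every panel spanning the same log2 range. The groups are apart for Fabp7, S100b and Erbb3, touch in Ngfr, where the highest mutant reads 9.75 and the lowest control 9.70, and overlap in the lower row.

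Fabp7, the brain lipid binding protein that carries long-chain fatty acids inside glia and their precursors, rose most. On mutant arrays it read from 9.80 to 10.78 with a median of 10.23, and on control arrays from 8.92 to 9.45 with a median of 9.27. All 6 mutants lay above all 6 controls, with mutant 2 highest and mutants 5 and 6 lowest among the mutants. The mean was 10.20 ± 0.35 in mutants and 9.20 ± 0.22 in controls (SD, n = 6 each), a difference of 1.00 ± 0.15 (SE), or 2.00-fold (limma adjusted p = 0.000918). Of the 18193 genes only 12 had a larger rise. The array has 1 single-symbol probe set for Fabp7, so no second reading is at hand.

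S100b, a small calcium-binding protein widely used to mark Schwann cells, rose as well. Mutant arrays read from 6.64 to 7.25 with a median of 6.81, and control arrays from 5.79 to 6.38 with a median of 6.08. The groups did not overlap. The difference was 0.79 ± 0.12 on the log2 scale, or 1.73-fold (6.89 ± 0.26 in mutants, 6.10 ± 0.21 in controls, limma adjusted p = 0.00120). A dimmer second probe set of S100b read 6.06 to 6.65 in mutants and 5.43 to 5.68 in controls, again without overlap, and differed by 0.76 ± 0.10 (limma adjusted p = 0.000793 over all probe sets, of which 5.40% passed). Over the 18193 genes the arrays of the groups were apart, in either direction, for 6.30%. The control level of S100b was near the median of all probe sets, a range in which RMA compresses fold changes.

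The promoters of Fabp7 and S100b, which rose together, and of Ngfr, which fell, are shown as the 250 bases before the RefSeq transcription start (GRCm38.p6). They are printed in the direction of the gene, and capitals mark matches to TGGGAA or its reverse complement TTCCCA, the core motif of RBPJ, the DNA-binding partner of Notch. Fabp7 lies at chr10:57784673-57784922 (+ strand), S100b at chr10:76253586-76253835 (+ strand) and Ngfr at chr11:95587699-95587948 (minus strand).
Fabp7: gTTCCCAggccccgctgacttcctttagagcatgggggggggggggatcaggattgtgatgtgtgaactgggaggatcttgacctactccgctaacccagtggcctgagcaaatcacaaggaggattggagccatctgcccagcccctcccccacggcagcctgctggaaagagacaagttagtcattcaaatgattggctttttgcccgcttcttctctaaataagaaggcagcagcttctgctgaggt
S100b: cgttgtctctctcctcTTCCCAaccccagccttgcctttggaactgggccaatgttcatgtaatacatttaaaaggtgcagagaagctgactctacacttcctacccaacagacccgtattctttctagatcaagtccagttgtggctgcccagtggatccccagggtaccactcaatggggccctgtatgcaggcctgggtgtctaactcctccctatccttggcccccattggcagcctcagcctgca
Ngfr: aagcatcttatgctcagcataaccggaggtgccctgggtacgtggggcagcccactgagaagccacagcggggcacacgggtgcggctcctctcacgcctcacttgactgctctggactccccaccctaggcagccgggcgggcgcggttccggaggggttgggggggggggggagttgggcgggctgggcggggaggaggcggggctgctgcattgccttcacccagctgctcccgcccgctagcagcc
The RBPJ core occurs once in Fabp7, starting 249 bases before the transcription start, and once in S100b, starting 234 bases before it, both as TTCCCA. It is in neither orientation in the Ngfr window. Of 27025 gene promoters of the same length 21.5% hold it. ACAAAG or its reverse complement CTTTGT, a core bound by SOX proteins, is in none of these 3 windows and in 16.5% of all of them. No match of 1 motif overlaps the other. The table of promoters matched 4 of the 8 genes, and the window of Dhh, the other match, holds neither motif. The Ngfr window has 70.4% G and C bases with 16 CG dinucleotides, against 54.8% and 4 in Fabp7 and 53.6% and 2 in S100b.

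Erbb3 encodes a neuregulin receptor with little kinase activity of its own that signals as a pair with ErbB2, and Schwann cell precursors die without it. It fell in the mutant tongue. Mutant arrays read from 10.66 to 11.02 with a median of 10.88, and control arrays from 11.22 to 11.47 with a median of 11.38. All 6 mutants lay below all 6 controls. The mean was 10.86 ± 0.13 in mutants and 11.37 ± 0.10 in controls, a difference of −0.51 ± 0.07 (SE), or 1.42-fold lower (limma adjusted p = 0.000519). With the mean of its probe sets the difference was −0.33 and passed. A second probe set of Erbb3 is much dimmer, at 5.32 in mutants and 5.47 in controls, and differed by −0.15 ± 0.08 (limma adjusted p = 0.381 over all probe sets).

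Ngfr, the p75 neurotrophin receptor of precursors and immature Schwann cells, fell with more spread. Mutant arrays read from 8.72 to 9.75 with a median of 9.33, and control arrays from 9.70 to 10.10 with a median of 9.85. Mutant 5 lay inside the control range and the other 5 mutants below every control, with mutants 2 and 1 lowest. The difference was −0.59 ± 0.14, or 1.50-fold lower (9.28 ± 0.37 in mutants, 9.86 ± 0.15 in controls, limma adjusted p = 0.0180). The dimmer probe sets of Ngfr also lay lower, by −0.34 ± 0.11 and −0.26 ± 0.08, but did not pass over all probe sets (limma adjusted p = 0.0871 and 0.0919). The call on Ngfr ended without mutants 1 and 2 together, where the difference was −0.38 (limma adjusted p = 0.0590). These are the mutants with the lowest Ngfr, so leaving them out makes the difference smaller by construction. Without mutant 1 alone or mutant 2 alone Ngfr still passed (limma adjusted p = 0.0463 and 0.0268). The call also ended, with fewer samples tested, without control 3, mutant 4 and mutant 6 (−0.60, limma adjusted p = 0.0950).

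Gfra3, the receptor subunit that binds artemin and signals through Ret, stayed within the replicate spread. It read 7.22 to 7.64 in mutants (median 7.53) and 7.33 to 7.67 in controls (median 7.48), with overlap on most arrays. The difference was −0.03 ± 0.07, with a 95% confidence interval of −0.18 to 0.13 (limma adjusted p = 0.876).

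Sox10 itself read 8.60 to 8.90 in mutants with a median of 8.81, and 8.52 to 8.82 in controls with a median of 8.71. The groups overlapped, with 3 mutants above every control. The mean was 8.78 ± 0.12 in mutants and 8.69 ± 0.12 in controls, a difference of 0.09 ± 0.07 (limma adjusted p = 0.450), and the 95% confidence interval of −0.05 to 0.24 leaves out a change the size of that of Fabp7, S100b, Erbb3 or Ngfr. The other Sox10 probe sets differed by −0.02 ± 0.08 and 0.15 ± 0.09 and did not pass (limma adjusted p = 0.921 and 0.407 over all probe sets).

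Cdh19, a type II cadherin known as a marker of Schwann cell precursors, read 6.54 to 7.14 in mutants (median 6.74) and 6.28 to 6.81 in controls (median 6.58). Mutants 2 and 3 lay above every control and the others among them. The difference of 0.22 ± 0.11 did not pass (95% confidence interval −0.02 to 0.46, limma adjusted p = 0.238). Dhh, the hedgehog ligand that Schwann cells send to the nerve sheath, read 5.93 to 6.42 in mutants (median 6.15) and 5.95 to 6.37 in controls (median 6.19). These values straddle the median of all probe sets, and the difference was 0.00 ± 0.09 (95% confidence interval −0.19 to 0.20, limma adjusted p = 0.985). The sign of the Dhh difference turned in several settings, and its dimmer probe set lay at −0.12 ± 0.09 (limma adjusted p = 0.568 over all probe sets).

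**Figure D2:**
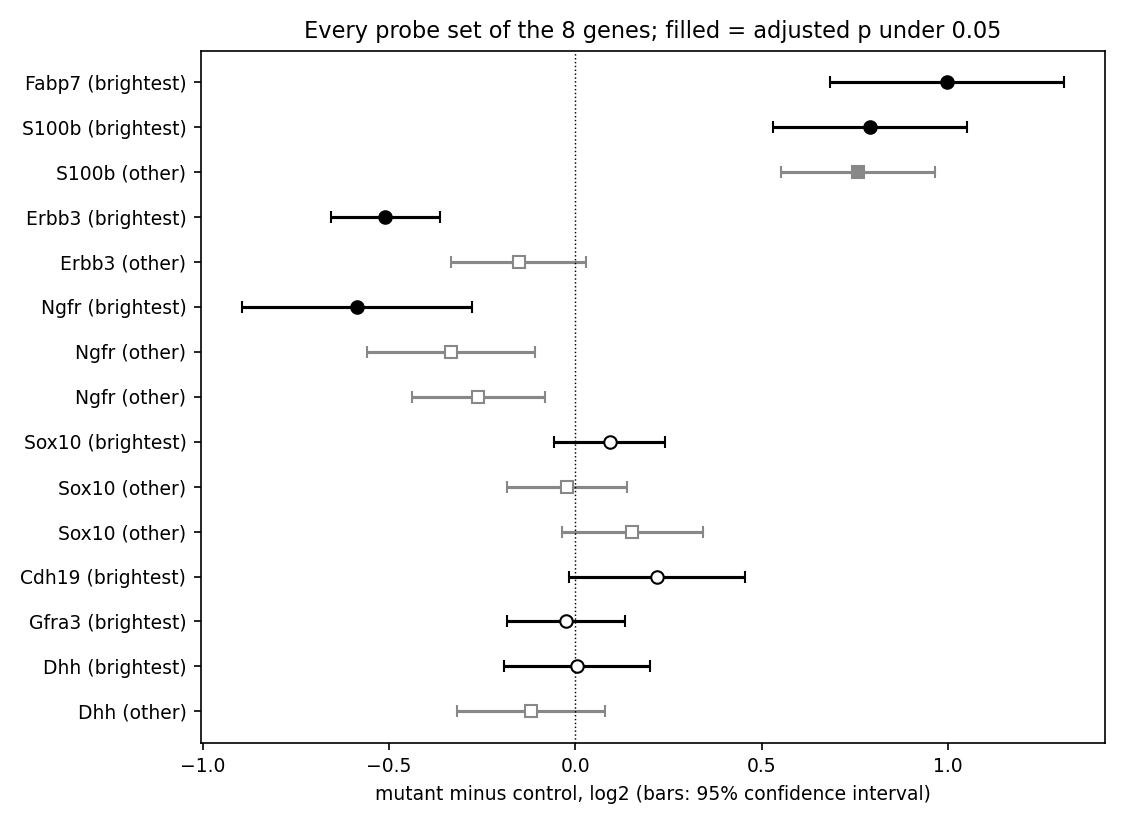
The difference between mutant and control arrays on the log2 scale is plotted for all 15 probe sets, with 95% confidence intervals from the fit across all probe sets; circles are the brightest probe set of a gene, squares the others, and filled marks passed. The S100b probe sets lie at 0.79 and 0.76, while the dimmer probe sets of Erbb3 and Ngfr lie on the same side as the brightest with smaller differences.

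The members that changed differed in size from one mutant to the next. Mutant 2 had the highest Fabp7 (10.78), the highest S100b (7.25) and the lowest Ngfr (8.72). Mutant 5 had the lowest Fabp7 (9.80), the lowest S100b (6.64), the highest Ngfr (9.75) and the highest Erbb3 (11.02) of the mutants. Mutant 1 had the lowest Erbb3 (10.66) and the second highest S100b (7.17).

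**Figure D3:**
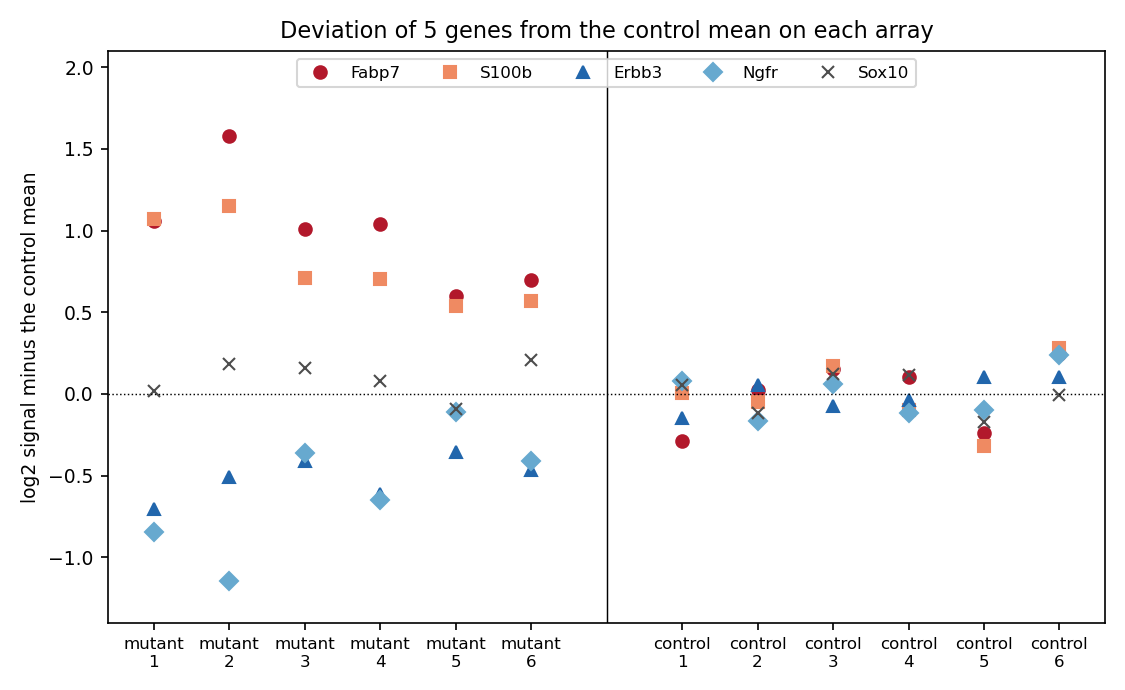
The log2 signal of 5 genes on each array is plotted as its deviation from the mean of the 6 controls, mutants on the left and controls on the right. Fabp7 and S100b lie above 0 and Erbb3 and Ngfr below it on all 6 mutants, farthest apart on mutants 1 and 2 and closest on mutant 5, while Sox10 lies near 0 throughout.

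Mutants 1 and 2 are also the arrays with the least Myf5, at 7.90 and 8.10, and mutant 5 has the most Myf5 of the mutants, at 9.09. Within the 6 mutants Ngfr and Myf5 correlated (Pearson r = 0.90, exact permutation p = 0.0125; Spearman rho = 0.94, exact permutation p = 0.0167), and r was 0.93 without mutants 1 and 2. Within the 6 controls the sign was the other way (r = −0.60, rho = −0.54, exact permutation p = 0.217 and 0.297; r = 0.12 without controls 2 and 5). Erbb3 and Myf5 gave r = 0.82 and rho = 0.94 in mutants (exact permutation p = 0.0542 and 0.0167; r = 0.91 without mutants 1 and 2). In controls they gave 0.72 and 0.77 (exact permutation p = 0.115 and 0.103; r = 0.88 without controls 2 and 5). Fabp7 and Tubb3, the neuronal β-tubulin, gave r = 0.87 and rho = 0.89 in mutants (exact permutation p = 0.0236 and 0.0333; r = 1.00 over the 4 arrays left without mutants 5 and 6), and 0.27 and 0.31 in controls (exact permutation p = 0.571 and 0.564; r = −0.24 without controls 4 and 5).

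With Myf5 in mutants, the genes that rose gave coefficients of the opposite sign to those of Ngfr and Erbb3. S100b and Myf5 gave r = −0.91 and rho = −0.77 in mutants (exact permutation p = 0.0222 and 0.103), a relation that rests on mutants 1 and 2, since r was −0.41 without them. In controls they gave −0.45 and −0.37 (exact permutation p = 0.371 and 0.497; r = 0.17 without controls 2 and 5). Fabp7 and Myf5 gave r = −0.69 and rho = −0.89 in mutants (exact permutation p = 0.114 and 0.0333; r = −0.49 without mutants 1 and 2), and −0.04 and 0.09 in controls (exact permutation p = 0.950 and 0.919; r = 0.64 without controls 2 and 5). Ngfr and Tubb3 gave r = −0.72 and rho = −0.77 in mutants (exact permutation p = 0.121 and 0.103; r = −0.81 without mutants 5 and 6), and 0.10 and 0.09 in controls (exact permutation p = 0.863 and 0.919; r = 0.42 without controls 4 and 5). S100b and Tubb3 gave r = 0.78 and rho = 0.77 in mutants (exact permutation p = 0.0806 and 0.103; r = 0.67 without mutants 5 and 6), and 0.26 and 0.26 in controls (exact permutation p = 0.601 and 0.658; r = 0.25 without controls 4 and 5). Erbb3 and Tubb3 gave r = −0.44 and rho = −0.60 in mutants (exact permutation p = 0.358 and 0.242; r = 0.23 without mutants 5 and 6), and −0.71 and −0.60 in controls (exact permutation p = 0.126 and 0.242; r = −0.80 without controls 4 and 5). These are all 16 relations of Fabp7, S100b, Erbb3 and Ngfr with Myf5 and Tubb3, genes picked after the values were seen. None passed after Benjamini-Hochberg adjustment over the 16 (lowest adjusted exact permutation p = 0.126 for r and 0.133 for rho). From least to most Myf5, the 6 mutants follow their order along the first principal component over all genes, mutant 1 farthest from the controls and mutant 5 nearest. No share over all genes was computed, so nothing particular to these members is read from the relations.

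The shift of each member was also set against that of Tubb3 on the same array. Tubb3 rose by 0.89 ± 0.12 in the mutant tongue (8.59 ± 0.26 in mutants, 7.70 ± 0.19 in controls, n = 6 each, limma adjusted p = 0.000591). Fabp7 minus Tubb3 differed between the groups by 0.11 (exact 2-sided permutation p = 0.385) and S100b minus Tubb3 by −0.10 (exact permutation p = 0.457), which does not show that they moved by the same amount. The other 6 members lay lower relative to Tubb3, from −0.67 for Cdh19 and −0.80 for Sox10 to −1.47 for Ngfr, each with no overlap between mutant and control arrays. Of all 18192 genes 78.9% also lay lower relative to Tubb3 without overlap, since subtracting a gene that rose places any gene that did not change lower, so nothing is read from this about the 6. In the planned limma fit of every gene minus Tubb3, 6 of 8 members passed beside 99.2% of 18192 genes. That share shows the rise of Tubb3 itself. All genes share the error of Tubb3 in this fit, and it gave all 8 members the same SE of 0.1596, whatever their own spread. Its p-values were therefore judged too small and are not given. The exact tests were chosen after this was seen.

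The variation of Sox10 from array to array was matched most closely by genes outside the set. After subtracting the genotype means, the closest over 12 arrays, among 12165 such genes brighter than the median probe set, were Pld2 (Pearson r = 0.90), Lamtor4 (0.89), Fam89a (0.89), Psenen (0.89) and Slc25a29 (0.86). Without mutant 5 and control 5, the arrays where Sox10 lay farthest from its middle, these were between 0.77 and 0.89. Among the glial genes Gfra3 was nearest (0.73), then Dhh (0.59), Fabp7 (0.40), S100b (0.35), Cdh19 (−0.07), Ngfr (−0.14) and Erbb3 (−0.35). Without mutant 5 and control 5, Gfra3 (0.67) and Dhh (0.57) were still nearest, while the order of the others did not hold: Ngfr was at 0.19, Erbb3 at 0.10, Fabp7 at 0.00, S100b at −0.16 and Cdh19 at −0.31. The matches were picked as the highest of many, so the coefficients are a description of these arrays.

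Other genes of the pathways around the 8 were read from lists. Of 10 neuregulin and ErbB genes 2 rose and none fell. Nrg1, the axonal ligand of the ErbB3 and ErbB2 pair, rose by 0.43 ± 0.12 (6.37 ± 0.29 in mutants, 5.94 ± 0.18 in controls, limma adjusted p = 0.0375), and Nrg3, at the dim level of 3.81 in mutants and 3.52 in controls, by 0.29. The Nrg1 call ended without any 1 of mutants 1, 2, 3 and 4 or of controls 1, 2, 3, 5 and 6, where the difference ran from 0.34 to 0.50 over all arrays left out in turn (limma adjusted p up to 0.0816). Erbb2, named for its role as the partner of ErbB3, read 9.82 ± 0.11 in mutants and 9.87 ± 0.08 in controls (−0.05, limma adjusted p = 0.677).

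Of 8 ligands and receptors of the GDNF family 1 rose and 2 fell. Ret, the receptor kinase that Gfra3 works with, fell by 1.01 ± 0.20 (7.28 ± 0.48 in mutants, 8.29 ± 0.31 in controls, limma adjusted p = 0.00587). Gfra1, the GDNF co-receptor, fell by 0.90 ± 0.13, while Gfra2, the neurturin co-receptor, rose by 0.65 ± 0.12. Of 8 neurotrophins and receptors measured of 11, Ntf5, a neurotrophin ligand, rose by 0.40 ± 0.08 and none fell. Of 11 hedgehog genes 6 rose and none fell, among them Ptch1, the receptor that Dhh binds (0.41 ± 0.08), Hhip (0.79 ± 0.13) and the effector Gli1 (0.39 ± 0.08). The Ptch1 call ended with the mean of its probe sets, at 0.20 (limma adjusted p = 0.0998). Shh, another ligand of the same receptor, also rose, by 0.56 ± 0.12, and is named after its value was seen.

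Of 16 neural crest and glial transcription factors 4 rose and 2 fell, with a median of −0.12. Sox9 rose by 0.44 ± 0.07, Sox5 by 0.41 ± 0.08 and Nfatc4, a calcium-dependent partner of Sox10 in Schwann cells, by 0.40 ± 0.08. The calls on Sox5 and Nfatc4 ended when the probe sets of each gene were averaged, at 0.12 and 0.17 (limma adjusted p = 0.150 and 0.111), and 2 of the 16 factors rose in that setting. Foxd3, a crest factor that comes before Sox10 in the lineage, lay at −0.16 ± 0.05 and did not pass (limma adjusted p = 0.0674), though it passed in 4 of the 24 alternatives. It is named after its value was seen, as are the 2 factors that fell. Sox6 fell by 0.42 ± 0.09 (limma adjusted p = 0.00695). Sox8, the closest relative of Sox10, fell by 0.47 ± 0.13 (limma adjusted p = 0.0307). The Sox8 call ended without any 1 of mutants 1, 2, 4 and 6 or of controls 2, 4, 5 and 6.

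Of 11 myelin and maturation genes measured of 15, 4 rose, no gene fell, and the median was −0.05. These were led by Ugt8a, which makes galactolipids of myelin (0.87 ± 0.19), followed by Pmp22, a peripheral myelin protein also made by other tissues (0.23 ± 0.06), and Cnp, an enzyme of myelinating glia (0.23 ± 0.06). Without mutants 1 and 2 none of the 11 passed, and without control 3, mutant 4 and mutant 6 only 1 did. In these settings 875 and 836 of all 18193 genes passed, beside 2020 with all arrays. Of 10 Schwann cell surface and secreted proteins 3 rose and 2 fell. Adgrg6, the adhesion receptor that starts myelination, fell by 0.74 ± 0.10 (8.94 ± 0.25 in mutants, 9.68 ± 0.13 in controls, limma adjusted p = 0.000695), and Itga4, an integrin subunit of migrating crest cells, by 0.70 ± 0.12. L1cam, an adhesion protein of axons and Schwann cells, rose by 0.49 ± 0.09. Among 12 measured paralogs of S100b and Fabp7, none rose and the muscle form Fabp3 fell by 0.97 ± 0.12.

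Markers of other cell types moved in the same arrays. Of 12 neuron markers 9 rose and none fell (median 0.71). Snap25 rose by 1.51 ± 0.18 and Elavl4, a neuronal RNA-binding protein, by 0.60 ± 0.08, and averaged over the list the mutant arrays read 8.08 to 8.89 and the control arrays 7.74 to 7.999. Of 8 cartilage markers 3 rose and 1 fell. The risers, all Col9 genes, were Col9a2 (0.69 ± 0.11), Col9a3 (0.64 ± 0.10) and Col9a1 (0.71 ± 0.13). The fall, in a gene not among the 3 of smallest p, was absent with quantile normalisation and with dim probe sets left out. It was also absent without any 1 of mutants 2, 3, 4 and 6 or controls 3 and 4. In all these settings 3 cartilage markers rose. The other 4 cartilage markers did not pass, and 3 of the 8 lay on average below the median of all probe sets. The list mean ranged from 6.90 to 7.12 in mutants and from 6.58 to 6.81 in controls. The part of nerve or cartilage in the rise of Fabp7 and S100b was not tested.

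Of 11 skeletal muscle markers 10 fell and none rose (median −0.72), with a list mean of 10.68 to 11.35 in mutants and 11.52 to 12.14 in controls. Myf5 fell by 1.81 ± 0.20, Myh8, a fetal myosin heavy chain, by 1.39 ± 0.18 and Myl1 by 0.66 ± 0.09. Smad4, the gene targeted, read 12.14 ± 0.27 in mutants and 12.29 ± 0.07 in controls (−0.15, limma adjusted p = 0.427); no source used here says whether its probe sets lie in the deleted part, so they do not check the genotype. The part of muscle in the fall of Erbb3 and Ngfr was not tested.

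Of 9 oral epithelium markers 4 rose and of 9 cranial mesenchyme markers 7 rose, with no falls in either (medians 0.26 and 0.39). The means ranged from 10.80 to 11.11 in mutants and 10.45 to 10.83 in controls for epithelium, and from 8.36 to 8.64 in mutants and 8.04 to 8.29 in controls for mesenchyme. Cldn4, Esrp1 and Krt5 led the first list (0.46, 0.39 and 0.38), and Dlx5, Prrx1 and Pdgfra the second (0.68, 0.61 and 0.41). Of 7 melanoblast markers, a further crest lineage that uses Sox10, only Kit rose (0.41 ± 0.10) and none fell. On average 4 of the 7 lay below the median of all probe sets. These were the pigment genes Dct, Tyrp1, Tyr and Mlana, none above 5.02 in mutants or 4.97 in controls on average. Mitf and Pmel, another pigment gene, did not lie below that median and did not pass. Of 7 markers of central glia none rose and Nes and Aqp4 fell (−0.53 ± 0.09 and −1.19 ± 0.32), with Olig2 at 3.16 in mutants and 3.11 in controls. On average 5 of the 7 lay below the median of all probe sets, and which cells made Nes and Aqp4 was not tested. None of 8 endothelium markers passed, Emcn having the smallest p (−0.17, limma adjusted p = 0.103), and of 9 macrophage markers Csf1r alone rose (0.21 ± 0.06).

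Several of these counts were smaller with fewer arrays, as was the count over all 18193 genes. That count was 2020 with all arrays, 875 without mutants 1 and 2, and 836 without control 3, mutant 4 and mutant 6. Without mutants 1 and 2 the rises numbered 4 among hedgehog genes, 1 among epithelium markers, 4 among mesenchyme markers and 7 among neuron markers, and 8 muscle markers fell. Without control 3, mutant 4 and mutant 6 the rises were 2, 1, 4 and 10 in the same lists, and 6 muscle markers fell. Of the neural crest and glial factors 3 rose and 1 fell in the first setting, and 2 rose and none fell in the second. Among neuregulin and ErbB genes 1 rose in each, among cartilage markers none fell and among central glia markers 1 fell, and Kit and Csf1r passed in neither. Leaving out 1 array also ended some calls: that on Cnp without any of mutants 1, 2, 3 and 4 or controls 2 and 5, that on Aqp4 without any of mutants 1, 2 and 4 or controls 2, 3, 4 and 6, that on Krt5 without any of mutants 1, 2 and 4 or controls 1, 3 and 6, and that on Csf1r without any of mutants 1, 2, 3 and 4 or controls 1, 2, 3 and 4. Myelin rises numbered 2 without any 1 of mutants 1, 2 and 4 or control 2, and epithelium rises 2 without any 1 of mutants 1, 2 and 4 or controls 1, 3 and 6, and also with arrays centred on their medians. With probe sets averaged per gene several genes passed with smaller differences, namely Snap25 (0.86), Ret (−0.66), Aqp4 (−0.61), Fabp3 (−0.49), Ugt8a (0.46), Prrx1 (0.39), Shh (0.30), L1cam (0.28) and Gfra2 (0.24).

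**Figure D4:**
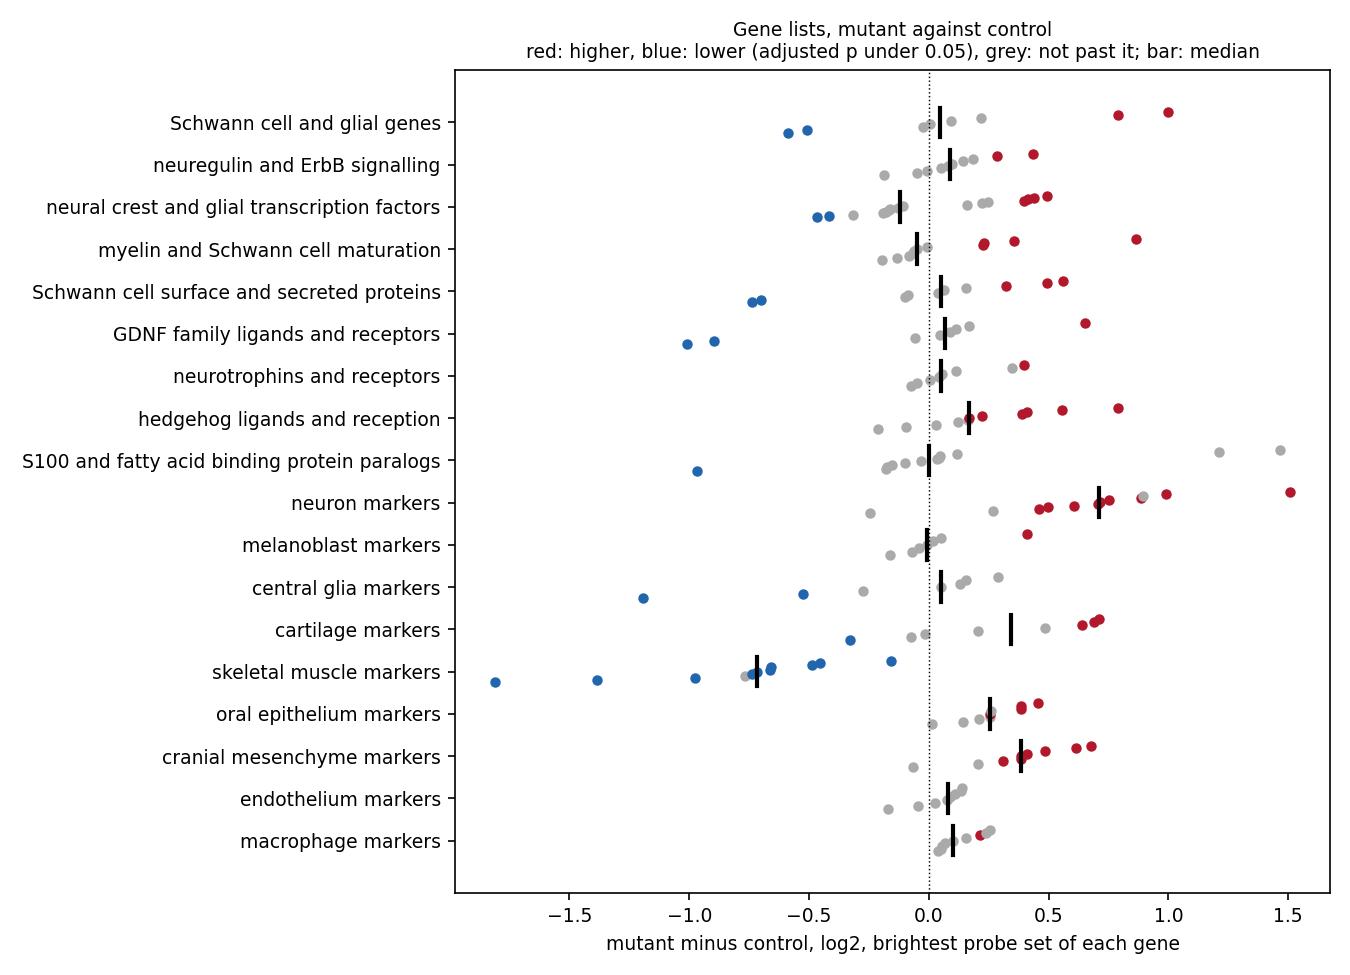
The log2 difference of each gene between mutant and control arrays is plotted by list, with red for genes that passed as higher, blue for lower and grey for those that did not pass, and a bar at the median of the list. The Schwann cell and glial genes spread from −0.59 to 1.00 around a median of 0.05, while 10 of 11 muscle markers lie to the left and 9 of 12 neuron markers to the right as passing genes.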

How the data were processed

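Total RNA of 12 tongue samples was hybridised to 1 Affymetrix array each. The deposited values are log2 signals per probe set; the submitters' processing notes name RMA as the authors' method. No source used here gives its software or version, and base 2 was taken from the range of 2.57 to 15.09. RMA brings arrays to a shared distribution, so a shift of most genes would not be seen. Arrays carry no counting depth, and their number limits the precision.

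The tables held 45101 probe sets, and the 64 that serve as controls entered no test. GEO's platform annotation paired 34945 probe sets with 1 symbol and 932 with several, leaving 9160 unnamed, and genes were named only from the first kind. Of these 34754 were found by gene identifier in RefSeq (GRCm38.p6), and no symbol changed. A gene's value is that of its brightest probe set by the mean over 12 arrays. The test was lmFit and eBayes of limma 3.58.1 (R 4.3.3) with genotype as the term, with Benjamini-Hochberg adjustment over 18193 genes. Tested on simulated data of 18193 genes for mutant against control, it called 86% of the genes set to differ by 0.5 (log2) and 98% of the genes set to differ by 1, with 4.17% false calls. Only 200 genes were changed there, and noise was drawn independently for each gene. Variation that genes share on an array was not simulated, so these shares need not hold for the real arrays.

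The members, the 17 other lists (178 entries, 166 measured), the tests and the arrays left out together were chosen with earlier results of these data known. Named were all members, Smad4, Myf5 and Tubb3, up to 3 passing genes of each list by smallest p (or the smallest p where none passed), and the 5 genes most like Sox10. Others are said to be named after their values were seen, except Erbb2 and Olig2, named for their role, and the melanoblast markers, of which all 7 are named. There were 24 alternatives, of which 12 left out 1 array each and the others changed normalisation, centring, probe set choice, the filter on dim probe sets, the variance model, the replicate block or the arrays used. Exact permutation tests enumerated all splits or orders of the samples. No scan batch is named in the labels.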

Additional observations from a re-analysis of the deposited data

Results flagged for a closer look

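Readings of 128 groups of 6 arrays were searched for an array far from the others. They came from the members' probe sets and the named genes, leaving out Sox6, Olig2, Dct, Tyrp1, Tyr, Mlana, Mitf and Pmel. Of the 128 groups 3 stood out by Dixon's criterion, which flags about 1 in 20 groups by chance. None was a reading of a Schwann cell or glial gene. Smad4 read 11.58 on mutant 1, and 12.18 to 12.30 on the other mutants. Emcn, an endothelial sialomucin, read 8.77 on mutant 6, and 9.04 to 9.19 on the other mutants. Emcn read 9.19 on control 4, and 9.23 to 9.25 on the other controls.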

How the results depend on the processing

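Fabp7, S100b and Erbb3 kept their direction and passed in all 24 alternatives, with differences of 0.84 to 1.11, 0.63 to 0.90 and −0.52 to −0.33 outside the settings that leave out 1 array. Ngfr passed in 22, and Sox10, Cdh19, Gfra3 and Dhh passed in none. Between 3 and 4 members passed in every alternative. Over all genes 2020 passed, 875 without mutants 1 and 2 (farthest along the first principal component, which held 35.04% of the variance), 836 without control 3, mutant 4 and mutant 6 (signal of both Xist and Y-linked genes), and 1398 to 2103 with 1 array left out. Without control 6 and mutant 6, lowest in 18S signal, 1890 passed. Dhh turned to −0.058 with the mean of its probe sets, −0.0273 with array weights per array and −0.0056 without control 3, mutant 4 and mutant 6. With 1 array left out Dhh ran from −0.0445 to 0.0548 and Gfra3 from −0.0585 to 0.0243. Of 40 named genes past the threshold outside the members, Sox6 not counted, 11 lost the call without mutants 1 and 2. Without control 3, mutant 4 and mutant 6 the number was 12, and none of the 40 turned direction. Same-numbered mutant and control arrays correlated in their deviations by −0.06 to 0.24, with replicate 3 below 0.1, so the numbers, which the labels tie to no shared litter or day, were not taken as pairs. With the replicate block 1932 genes and 4 members passed, Ngfr among them (adjusted p = 0.0163). Of the 40 named genes Csf1r alone lost its call under the block (adjusted p = 0.0900), while 2 other macrophage markers rose, and 11 neuron markers rose. The cause of lost calls, whether the smaller number of arrays or the choice of arrays left out, was not tested.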
